A study of Mus musculus with 60 samples.

Results

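Described here are 41 genes of DNA replication and S phase, chosen by name for what their products do: they load and activate the replicative helicase, form the fork, make deoxynucleotides, join and repair new DNA, and package it. All 41 were found among the 55414 genes of the count table, and all 41 passed the filter on low counts in every comparison. By role they are 10 genes of origin licensing, 6 of helicase activation, 4 of polymerases and primase, 6 of the clamp and its loader, 5 of nucleotide supply, 6 of single strand binding, strand maturation and uracil repair, and 4 of chromatin assembly and histone mRNA. The rule names genes and uses no measured value.

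A resting lymphocyte does not copy its DNA. When its antigen receptor and a costimulatory receptor are engaged it leaves quiescence, grows, and enters S phase after about a day, and the genes for licensing factors, fork proteins and nucleotide synthesis are then transcribed together, in large part as targets of E2F transcription factors once the retinoblastoma family is phosphorylated. Licensing places an inactive ring of MCM proteins on origins, through ORC, CDC6 and CDT1. CDC45, GINS and MCM10 then turn the ring into a moving helicase, behind which polymerases, the PCNA clamp and the clamp loader copy the strands. Interleukin-2, which activated T cells make and consume, signals through JAK kinases and STAT5 and is a growth factor for CD8 T cells. SH2B3, also called LNK, is an adaptor that dampens cytokine receptor and JAK signalling.

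Naive CD8 T cells were isolated by negative selection from spleens of OT-I transgenic mice on the NOD background, which is prone to autoimmune diabetes. Their T cell receptor is that of the OT-I transgene. Sh2b3-/- (KO) and Sh2b3+/+ (WT) cells were sequenced at 0 h without stimulation, with 11 libraries of each genotype. Cells of both genotypes were also stimulated with anti-CD3 bound to the plate at 10 µg/mL and anti-CD28 in solution at 5 µg/mL, and sequenced after 2, 6 and 24 h, with 5 libraries each at every time. A further 4 libraries of each genotype came from 24 h of the same stimulation with an antibody to IL-2 at 10 µg/mL. All groups thus share the NOD background and the OT-I receptor, and all stimulated groups share the 2 stimulating antibodies. Labels give the loss of Sh2b3 as a genotype of the mice, and the cells were stimulated through antibodies rather than through ovalbumin peptide. Whether the replicates are separate animals is not given in the labels, so p-values measure the spread between these samples.

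Levels are given in CPM, a gene's reads scaled to the depth of its library by the TMM method, and differences in log2 units with their standard errors (SE). Genes with an adjusted p under 0.05 count as called. The p-values come from edgeR's quasi-likelihood test and were adjusted by Benjamini and Hochberg's method across every gene tested. Total counts ran from 13987029 to 35476519 per library. Library names fall into 4 number ranges that the labels do not describe, here called runs: run A holds 0, 2 and 6 h (5 libraries of each genotype and time), run B 0 and 24 h (2 each), run C 0 h (4 each) and 24 h (3 each), and run D all cultures with anti-IL-2 and no others. Anti-IL-2 and run D therefore cannot be told apart. Sh2b3 averaged 13.7 ± 3.21 CPM in KO and 80.3 ± 8.03 CPM in WT cells at 0 h (SD, n = 11 each), and no KO library reached any WT library at any time. In run A, 1 KO library at each time (replicate 10 at 0 h, replicate 3 at 2 h and replicate 3 at 6 h) stood apart from the others, and the numbers in the names of these 3 end in the same digit. Counts at 0, 2 and 6 h that use them are given with and without them. The KO 24 h against 0 h count and the 24 h genotype by time interaction are given only with them. The 7 CD8 T cell markers were present in every library, summing to 6069.8 to 7148 CPM in KO and 6079 to 6736 CPM in WT cells at 0 h.

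The replication genes stayed near their resting level through 6 h and rose together at 24 h. Their summed level was 1648 ± 114, 1844 ± 79.1, 1595 ± 67.5 and 7302 ± 1653 CPM at 0, 2, 6 and 24 h in KO cells, and 1628 ± 69.6, 1826 ± 39.7, 1639.9 ± 32.7 and 6477 ± 1963 CPM in WT cells (SD, n = 11 at 0 h and 5 at each later time). Here and for single genes below, means at 0 h cover runs A, B and C. Those at 2 and 6 h cover run A, and those at 24 h without anti-IL-2 cover runs B and C. A step between such means can thus differ in size or sign from the fitted difference, which is taken within runs. The 24 h mean was 4.43 times the 0 h mean in KO and 3.98 times in WT cells. At 24 h the 5 libraries of a genotype spread widely and by run. The KO libraries summed to 8031, 4736 and 6784 CPM in run C and 9102 and 7855 CPM in run B, and the WT libraries to 4602, 5023 and 5574 CPM in run C and 8631 and 8555 CPM in run B. The lowest 24 h library still lay above every library at 0, 2 and 6 h. In these bulk samples, fewer cells in S phase and less replication mRNA per cell cannot be told apart.

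**Figure D1:**
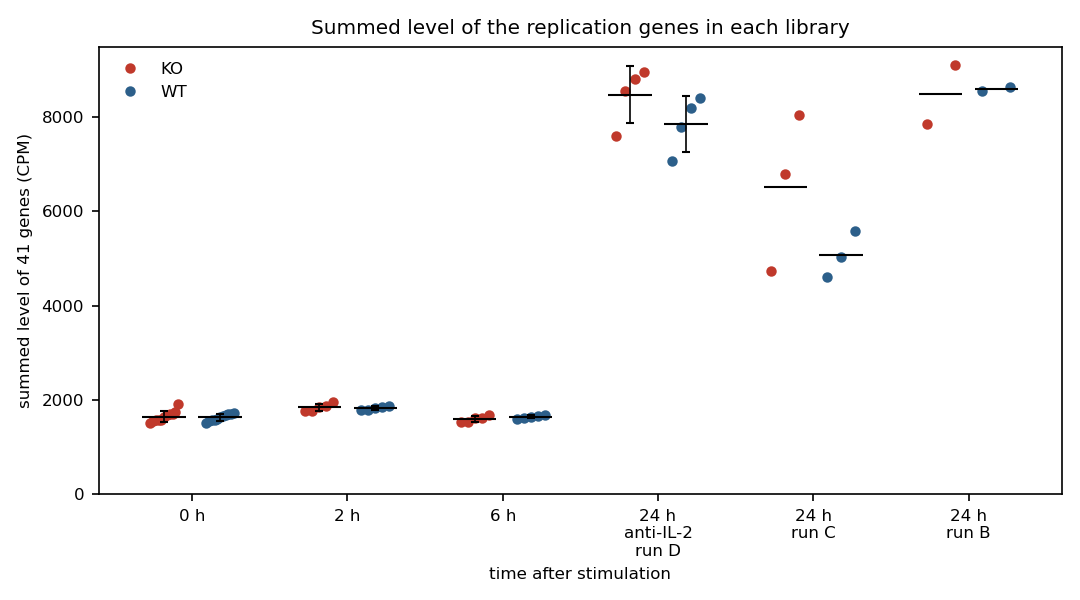
Summed level of the 41 replication genes in each library (CPM, y axis) by time and, at 24 h, by treatment and run, with KO left of WT. Points are libraries, the horizontal line is the mean and bars are the SD where a group has over 3 libraries. All libraries up to 6 h lie below every 24 h library, and at 24 h without anti-IL-2 the means of run C lie below those of run B.

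At 24 h all 41 genes were higher than at 0 h in both genotypes, whereas 30.1% of all genes tested were called higher and 29.8% lower in KO cells, and 27.8% higher and 31.6% lower in WT cells. The median difference over the 41 genes was 2.62 log2 units in KO and 2.24 in WT cells, beside −0.05 and −0.09 over all genes tested. At least a 2-fold rise, in genes also called, was reached by 38 of 41 genes in KO and 37 of 41 in WT cells. How many of all genes did so is not given here. The largest adjusted p among the 41 genes was 9.90e-05 in KO and 6.17e-05 in WT cells. Within run B alone all 41 genes were called in each genotype, and within run C alone 40 of 41, where Cdt1 was the exception. Shares of all genes called within single runs are not given here. The median over the 41 genes was 2.28 in run C and 2.98 in run B for KO cells, and 1.97 in run C and 3.02 in run B for WT cells.

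The CD8 T cell markers moved the other way over the same times. All 7, among them Cd8a and Cd3e, were called lower than at 0 h at 2, 6 and 24 h in both genotypes, with medians at 24 h of −0.94 in KO and −0.82 log2 units in WT cells. They summed to 2494 to 2892, 2506 to 2990.2 and 2543 to 3662 CPM at 2, 6 and 24 h in KO cells and to 2469 to 2780.3, 2465 to 2655 and 2519 to 3812 CPM in WT cells, below every 0 h library and with none at 0. At 24 h 2 of the 6 markers of dendritic cells and MHC class II were called higher in each genotype, and the 6 summed to 47.6 to 113 CPM in KO cells at 24 h, against 14.3 to 66.6 CPM at 0 h, and to 52.2 to 174 CPM in WT cells at 24 h, against 10.2 to 62.6 CPM at 0 h. Of the 7 B cell markers 2 were called higher and 1 lower in WT cells, where they summed to 14.8 to 68.8 CPM at 24 h, against 23.1 to 45.3 CPM at 0 h. Of the 4 CD4 and regulatory T cell markers 2 were called higher and 1 lower in KO cells, where they summed to 5.74 to 13.8 CPM at 24 h, against 9.55 to 23.1 CPM at 0 h. None of the markers of these 3 lists was at 0 in every library of a group. Of the other lists, 1 NK cell marker was called higher in KO cells, where the 4 NK cell markers summed to 32.3 to 117 CPM at 24 h, against 27.3 to 74.4 CPM at 0 h. Called lower at 24 h were 1 marker of monocytes and macrophages in each genotype and 1 erythroid marker in KO cells. The part of these transcripts in the 24 h rise was not tested.

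**Figure D2:**
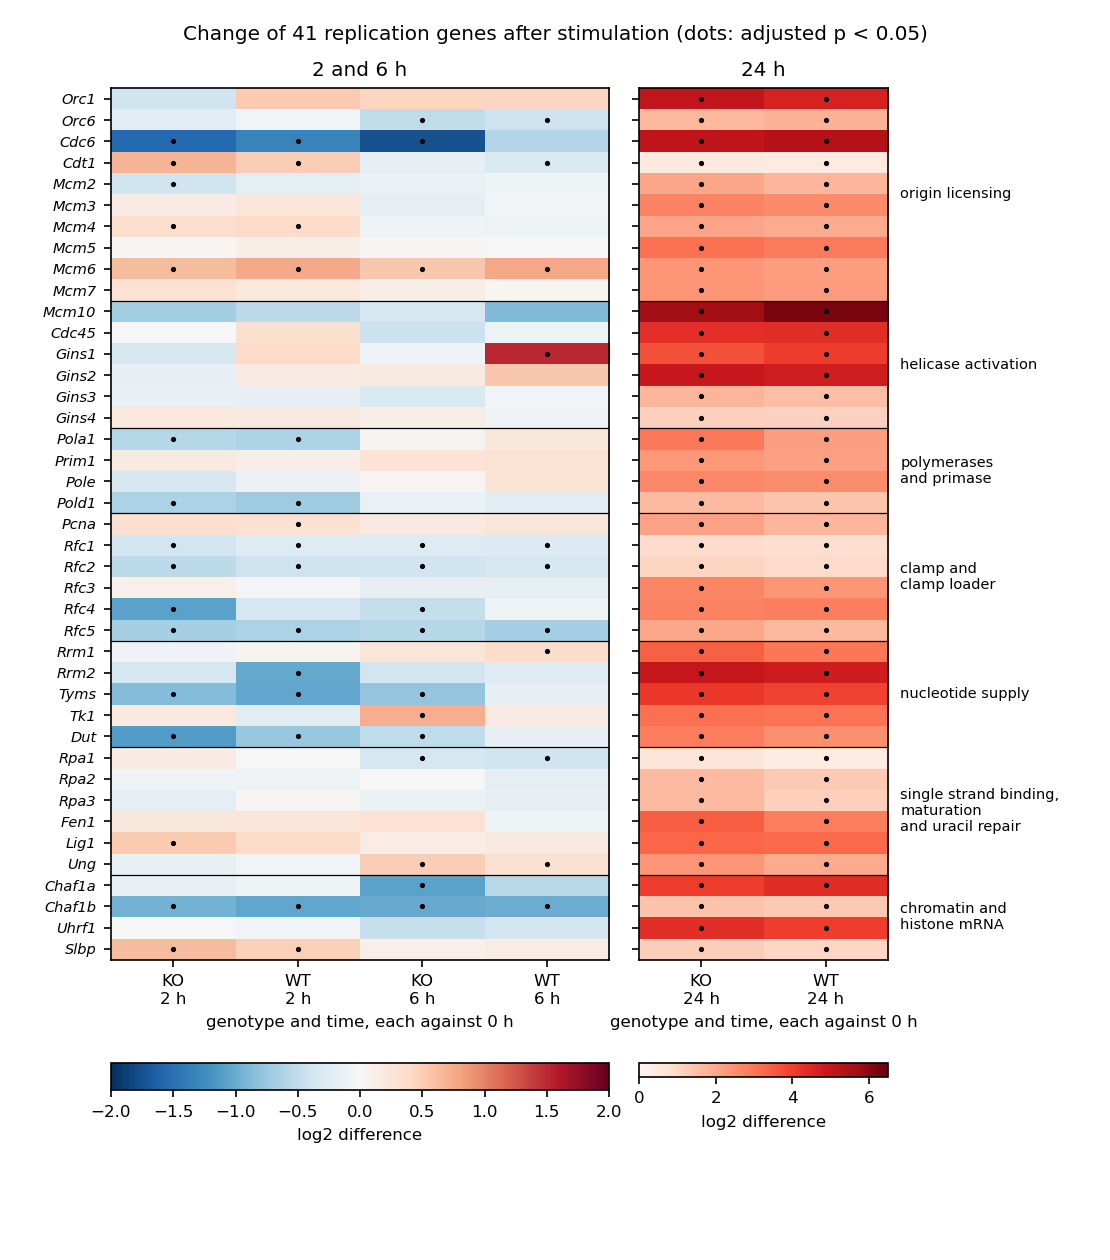
Log2 differences of the 41 genes against 0 h, in rows grouped by role, at 2 and 6 h (left, blue to red from −2 to 2) and at 24 h (right, from 0 to 6.5), with KO left of WT at each time. Dots mark adjusted p under 0.05. Every 24 h cell carries a dot, while at 2 and 6 h calls are scattered in both directions.

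The origin licensing genes rose at 24 h by a median of 2.35 log2 units in KO and 2.20 in WT cells. The range was 0.45 to 5.15 in KO and 0.42 to 5.37 in WT cells, with Cdc6 and Orc1 at the high end and Cdt1 at the low end. Cdc6 (ENSMUSG00000017499), which loads the helicase with CDT1, stood at 95.2, 48.9 and 72.4 CPM in run C and 96.9 and 78.3 CPM in run B in KO cells at 24 h, and at 0 h its 11 KO libraries had a lowest value of 1.08, a median of 2.91 and a highest value of 7.11 CPM. In WT cells it stood at 32.0, 64.1 and 56.6 CPM in run C and 102 and 91.97 CPM in run B at 24 h, and at 0 h had a lowest value of 0.535, a median of 1.72 and a highest value of 2.29 CPM. The 24 h and 0 h libraries did not overlap in either genotype, and the rise was 5.15 ± 0.33 (SE) in KO and 5.37 ± 0.30 in WT cells.

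Cdt1 (ENSMUSG00000006585), the other loading factor, rose least among the licensing genes. Its 24 h libraries had 128, 96.5 and 113 CPM in run C and 134 and 126 CPM in run B in KO cells, against a lowest value of 77.0, a median of 93.4 and a highest value of 108 CPM at 0 h. In WT cells they had 105, 101 and 115 CPM in run C and 149.7 and 147 CPM in run B, against a lowest value of 84.3, a median of 90.1 and a highest value of 104 CPM at 0 h. The 24 h and 0 h ranges overlapped in both genotypes, and the difference was 0.45 ± 0.09 in KO and 0.42 ± 0.08 in WT cells (adjusted p = 9.13e-05 and 6.17e-05). Within run C alone it was 0.26 in KO (adjusted p = 0.0839) and 0.23 in WT cells (adjusted p = 0.0540), past the threshold in neither.

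Orc1, the largest subunit of the origin recognition complex, averaged 1.23 ± 0.542, 1.19 ± 0.474, 2.04 ± 0.668 and 32.1 ± 9.27 CPM at 0, 2, 6 and 24 h in KO cells. Orc1 in WT cells averaged 1.13 ± 0.802, 1.83 ± 1.53, 1.699 ± 0.417 and 24.8 ± 10.0 CPM (SD). Its rise at 24 h was 5.10 ± 0.30 in KO and 4.64 ± 0.45 in WT cells. The helicase subunit Mcm2 averaged 88.7 ± 11.9, 76.3 ± 2.27, 87.7 ± 10.7 and 314 ± 56.4 CPM at 0, 2, 6 and 24 h in KO cells. Mcm2 in WT cells averaged 84.9 ± 10.8, 82.9 ± 5.40, 86.9 ± 3.66 and 264 ± 78.2 CPM. Mcm5, another subunit of the same ring, averaged 56.8 ± 7.21, 61.4 ± 5.43, 59.4 ± 4.77 and 445 ± 108 CPM at 0, 2, 6 and 24 h in KO cells. Mcm5 in WT cells averaged 53.2 ± 6.63, 62.9 ± 4.01, 56.5 ± 9.30 and 385 ± 133 CPM. Among the 6 ring subunits the 24 h difference ran from 2.04 (Mcm2) to 3.09 (Mcm5) in KO and from 1.72 (Mcm2) to 2.89 (Mcm5) in WT cells, so the ring genes moved within a narrower band than their loaders. Orc6 rose by 1.68 ± 0.13 in KO and 1.78 ± 0.14 in WT cells.

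The genes of helicase activation had the highest median rise of the 7 roles, 4.01 in KO and 4.22 log2 units in WT cells. Mcm10 (ENSMUSG00000026669), which helps CDC45 and GINS open the ring, rose most of all 41 genes in both genotypes. At 24 h it stood at 103, 51.3 and 87.9 CPM in run C and 131 and 95.8 CPM in run B in KO cells, against a lowest value of 0.660, a median of 2.12 and a highest value of 3.71 CPM at 0 h. In WT cells it stood at 38.4, 49.2 and 54.5 CPM in run C and 96.1 and 113 CPM in run B, against a lowest value of 0.287, a median of 1.31 and a highest value of 2.58 CPM at 0 h. No 24 h library overlapped any 0 h library, and the differences of 5.70 ± 0.38 in KO and 6.23 ± 0.40 in WT cells correspond to 51.9-fold and 75.2-fold fitted rises. These folds rest on a few CPM at 0 h and depend on how such low counts are modelled.

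Cdc45, a core part of the active helicase, averaged 5.31 ± 1.96, 6.36 ± 0.930, 4.52 ± 2.53 and 88.2 ± 27.2 CPM at 0, 2, 6 and 24 h in KO cells. Cdc45 in WT cells averaged 3.20 ± 0.890, 3.84 ± 1.21, 2.80 ± 0.531 and 73.9 ± 27.6 CPM. Gins2, 1 of the 4 GINS subunits, averaged 1.56 ± 0.646, 1.62 ± 0.476, 1.99 ± 0.667 and 39.99 ± 12.1 CPM at 0, 2, 6 and 24 h in KO cells. Gins2 in WT cells averaged 1.33 ± 0.645, 1.76 ± 1.09, 2.20 ± 1.14 and 33.2 ± 8.64 CPM. The GINS genes rose unequally, by 3.68, 4.91, 1.74 and 1.15 log2 units for Gins1 to Gins4 in KO cells and by 4.05, 4.77, 1.56 and 1.12 in WT cells, although their products form a single complex. In the gene annotation 67.3% of the exon bases of Gins2 lie over Gse1 on the other strand, and the sources used here do not say whether counting used strand, so its level is uncertain.

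The polymerase and primase genes rose by a median of 2.47 in KO and 2.16 in WT cells, within 1.64 to 2.93 and 1.42 to 2.55. Pola1, the catalytic subunit of the polymerase that starts each fragment, averaged 14.6 ± 3.03, 11.5 ± 2.73, 17.2 ± 2.47 and 93.6 ± 28.8 CPM at 0, 2, 6 and 24 h in KO cells. Pola1 in WT cells averaged 15.8 ± 2.33, 11.5 ± 1.66, 19.9 ± 3.003 and 73.4 ± 33.7 CPM. Its partner primase, Prim1, averaged 16.1 ± 2.53, 17.3 ± 3.99, 17.7 ± 1.22 and 80.4 ± 18.3 CPM at 0, 2, 6 and 24 h in KO cells. Prim1 in WT cells averaged 15.5 ± 2.17, 16.5 ± 1.46, 18.05 ± 2.28 and 75.0 ± 27.7 CPM. Pole, the catalytic subunit of the leading strand polymerase, averaged 20.1 ± 3.71, 17.1 ± 4.12, 21.1 ± 3.48 and 117 ± 43.5 CPM at 0, 2, 6 and 24 h in KO cells. Pole in WT cells averaged 17.1 ± 3.72, 17.5 ± 1.63, 22.4 ± 2.74 and 105 ± 57.1 CPM. The lagging strand polymerase gene Pold1 rose least of the 4, by 1.64 ± 0.12 in KO and 1.42 ± 0.12 in WT cells.

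In the clamp and clamp loader group the medians were 2.07 in KO and 1.69 in WT cells. Pcna, the sliding clamp, had the highest resting level of the 41 genes per kilobase of exon and averaged 147 ± 18.1, 203 ± 41.7, 178 ± 39.8 and 578 ± 182 CPM at 0, 2, 6 and 24 h in KO cells. Pcna in WT cells averaged 154 ± 11.3, 196 ± 12.2, 184 ± 14.5 and 519 ± 185 CPM. The loader subunit Rfc3 averaged 9.83 ± 2.01, 12.0 ± 1.09, 9.58 ± 1.602 and 54.7 ± 16.7 CPM at 0, 2, 6 and 24 h in KO cells. Rfc3 in WT cells averaged 9.39 ± 2.05, 10.8 ± 1.13, 9.57 ± 1.53 and 45.2 ± 22.3 CPM. The 5 loader genes also rose unequally: Rfc3 and Rfc4 by 2.67 and 2.73 in KO and 2.34 and 2.79 in WT cells, and Rfc1 and Rfc2 by 0.90 and 1.04 in KO and 0.83 and 0.92 in WT cells. Rfc5 lay between them at 2.02 ± 0.15 in KO and 1.67 ± 0.15 in WT cells. Of their annotated exon bases, 15.1% lie over Lat2 for Rfc2, 12.7% over Eif4a2 for Rfc4 and 10.7% over Wsb2 for Rfc5, all on the other strand.

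Nucleotide supply had medians of 3.40 in KO and 3.05 in WT cells. Rrm2, the subunit of ribonucleotide reductase whose supply limits the enzyme outside S phase, averaged 9.20 ± 4.22, 6.90 ± 2.97, 6.42 ± 3.55 and 294 ± 88.1 CPM at 0, 2, 6 and 24 h in KO cells. Rrm2 in WT cells averaged 7.45 ± 1.51, 3.75 ± 0.784, 6.17 ± 1.15 and 218 ± 70.8 CPM. Rrm1, the other subunit, averaged 38.6 ± 5.63, 41.2 ± 3.73, 48.9 ± 4.65 and 369.6 ± 125 CPM at 0, 2, 6 and 24 h in KO cells. Rrm1 in WT cells averaged 38.2 ± 4.47, 43.2 ± 2.17, 52.6 ± 8.93 and 319.8 ± 159 CPM. Tyms, thymidylate synthase, averaged 4.63 ± 1.29, 2.88 ± 1.42, 2.92 ± 0.844 and 74.2 ± 27.9 CPM at 0, 2, 6 and 24 h in KO cells. Tyms in WT cells averaged 4.06 ± 1.07, 2.14 ± 1.03, 3.84 ± 0.525 and 64.0 ± 30.2 CPM. The difference for Rrm2 was 4.98 ± 0.43 in KO and 4.78 ± 0.15 in WT cells, and for Tyms 4.16 ± 0.28 and 3.93 ± 0.22. Tk1, thymidine kinase of the salvage pathway, averaged 6.13 ± 1.64, 6.71 ± 2.32, 9.31 ± 2.07 and 56.0 ± 21.1 CPM at 0, 2, 6 and 24 h in KO cells. Tk1 in WT cells averaged 5.58 ± 1.30, 5.40 ± 1.63, 6.85 ± 1.61 and 45.6 ± 20.5 CPM. Dut, which removes dUTP before it can be built into DNA, averaged 28.9 ± 3.56, 13.8 ± 2.37, 20.4 ± 2.20 and 195 ± 40.7 CPM at 0, 2, 6 and 24 h in KO cells. Dut in WT cells averaged 27.9 ± 2.10, 16.4 ± 2.47, 24.1 ± 1.29 and 162 ± 41.4 CPM.

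The group of single strand binding, maturation and uracil repair had medians of 1.99 in KO and 1.62 in WT cells. Lig1, which seals the fragments, averaged 25.1 ± 4.87, 37.6 ± 2.64, 28.1 ± 6.86 and 228 ± 65.5 CPM at 0, 2, 6 and 24 h in KO cells. Lig1 in WT cells averaged 21.1 ± 3.54, 29.7 ± 3.92, 25.5 ± 4.87 and 201 ± 96.3 CPM. Ung, which removes uracil from DNA, averaged 21.7 ± 3.91, 19.7 ± 2.22, 29.6 ± 6.23 and 102 ± 16.5 CPM at 0, 2, 6 and 24 h in KO cells. Ung in WT cells averaged 23.3 ± 2.27, 22.9 ± 2.96, 28.5 ± 2.05 and 88.8 ± 13.9 CPM. Fen1, the flap nuclease, averaged 1.29 ± 0.637, 1.86 ± 0.348, 1.87 ± 0.977 and 11.2 ± 3.23 CPM at 0, 2, 6 and 24 h in KO cells. Fen1 in WT cells averaged 1.22 ± 0.439, 1.61 ± 0.426, 1.23 ± 0.221 and 8.23 ± 4.13 CPM. At 24 h WT replicate 2, of run C, had only 1.34 CPM of Fen1, within the range at 0 h. For Fen1 84.2% of annotated exon bases lie over Gm10143 and Tmem258 on the other strand, and its level is uncertain for the reason given for Gins2. Of the 3 subunits of RPA, which coats single strands, Rpa2 averaged 31.5 ± 4.11, 31.5 ± 3.53, 31.4 ± 1.91 and 91.0 ± 19.4 CPM at 0, 2, 6 and 24 h in KO cells. Rpa2 in WT cells averaged 33.0 ± 4.91, 31.4 ± 0.409, 29.2 ± 1.38 and 82.3 ± 25.8 CPM. Rpa3 averaged 12.2 ± 1.76, 12.0 ± 0.774, 11.8 ± 1.98 and 34.0 ± 11.1 CPM at 0, 2, 6 and 24 h in KO cells. Rpa3 in WT cells averaged 12.6 ± 1.36, 12.8 ± 1.62, 10.9 ± 1.39 and 30.1 ± 9.30 CPM. Rpa1, the largest subunit, rose least of the 3, by 0.62 ± 0.13 in KO and 0.39 ± 0.07 in WT cells, from 0 h means of 207 and 220.2 CPM.

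Of the chromatin and histone mRNA genes, Uhrf1, which carries DNA methylation over to the new strand, averaged 23.2 ± 7.09, 21.9 ± 2.38, 15.4 ± 3.27 and 476 ± 116 CPM at 0, 2, 6 and 24 h in KO cells. Uhrf1 in WT cells averaged 21.1 ± 3.04, 20.1 ± 2.43, 15.6 ± 3.38 and 367 ± 116 CPM. Its rise was 4.36 ± 0.23 in KO and 4.03 ± 0.17 in WT cells. Chaf1b, the middle subunit of the chromatin assembly factor CAF-1, averaged 20.6 ± 4.46, 10.9 ± 2.59, 10.1 ± 1.90 and 52.9 ± 13.8 CPM at 0, 2, 6 and 24 h in KO cells. Chaf1b in WT cells averaged 19.9 ± 3.05, 10.3 ± 1.62, 10.5 ± 0.914 and 49.4 ± 17.2 CPM. Slbp, which binds the stem loop of histone mRNAs, averaged 65.7 ± 10.0, 88.3 ± 6.19, 58.9 ± 4.39 and 164 ± 25.2 CPM at 0, 2, 6 and 24 h in KO cells. Slbp in WT cells averaged 67.5 ± 10.5, 82.1 ± 6.73, 63.9 ± 5.71 and 153 ± 22.9 CPM. Its 6 h means lay below the 0 h means over all runs. The fitted 6 h differences of Slbp, within run A, were nevertheless above 0, at 0.10 in KO and 0.15 log2 units in WT cells. Chaf1a, the large CAF-1 subunit, rose by 4.03 ± 0.28 in KO and 4.41 ± 0.25 in WT cells, more than Chaf1b at 1.45 ± 0.19 and 1.31 ± 0.15. For Chaf1a 52.5% of exon bases lie over Ubxn6 on the other strand, and this difference between the subunits is uncertain.

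Genes that were low at rest rose more. Per kilobase of exon, the mean level at 0 h in run A ran from 0.277 CPM per kb (Mcm10) to 67.3 (Pcna) in KO and from 0.235 (Mcm10) to 65.7 (Pcna) in WT cells. Across the 41 genes the log2 of this level and the 24 h difference had a Pearson's r of −0.77 and a Spearman's rho of −0.71 in KO, and −0.80 and −0.72 in WT cells. These describe 41 genes measured in the same libraries, which are not independent replicates. The level came from run A and the 24 h difference from runs B and C. The 12 genes under 2 CPM per kb in WT cells at rest rose by a median of 4.09 in KO and 4.22 in WT cells, and the other 29 by 2.08 and 1.78. Rrm2 and Uhrf1 were among these 29 and still rose strongly: at 2.72 and 4.87 CPM per kb in resting WT cells, they rose by 4.78 and 4.03.

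**Figure D3:**
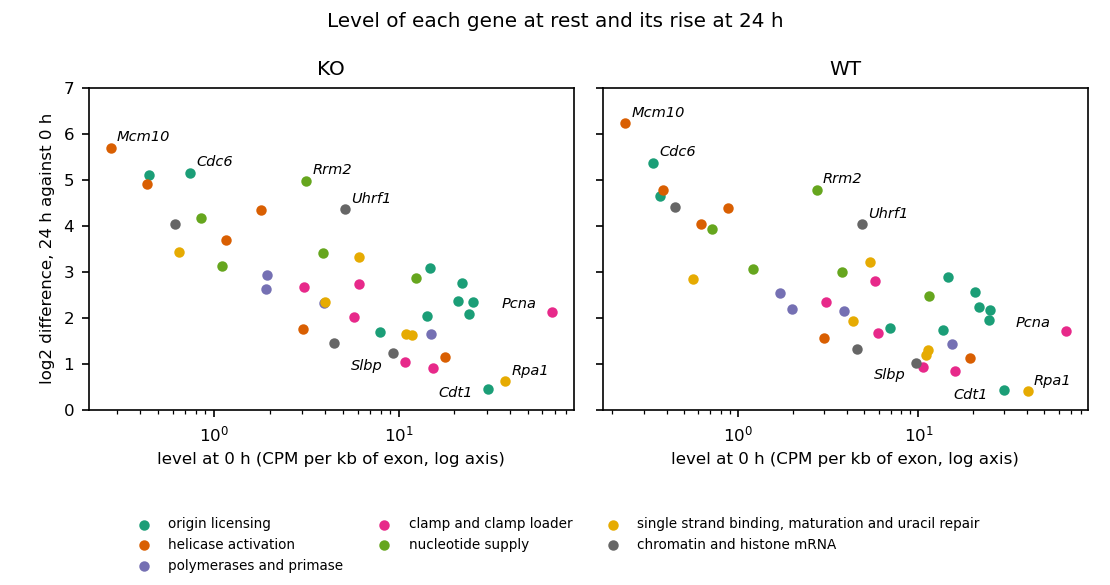
Mean level of each gene at 0 h in run A (CPM per kb of exon, log axis) against its log2 difference at 24 h, for KO (left) and WT (right). Each point is 1 of the 41 genes, coloured by role. Mcm10 and Cdc6 combine low resting levels with the largest rises, while Cdt1 and Rpa1 start high and rise least.

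The promoters below belong to the 2 genes with the largest and the 2 with the smallest 24 h rise in both genotypes among the representative genes of each role that the RefSeq promoter table (build GRCm38.p6) holds, and show what the window of such genes looks like. Each is 250 bases before and 50 bases from the annotated start on, written 5′ to 3′ in the gene's direction, at chr2:5012742-5013041 on the minus strand for Mcm10, chr11:98907901-98908200 on the plus strand for Cdc6, chr5:33652525-33652824 on the minus strand for Slbp and chr8:122567765-122568064 on the plus strand for Cdt1. Capitals mark matches to an E2F-type word (TTTCCCGC, TTTGGCGC, TTTCGCGC or TTTGCCGC on either strand; matches on opposite strands may overlap), and a sequence without capitals holds none of the 4 words.
Mcm10: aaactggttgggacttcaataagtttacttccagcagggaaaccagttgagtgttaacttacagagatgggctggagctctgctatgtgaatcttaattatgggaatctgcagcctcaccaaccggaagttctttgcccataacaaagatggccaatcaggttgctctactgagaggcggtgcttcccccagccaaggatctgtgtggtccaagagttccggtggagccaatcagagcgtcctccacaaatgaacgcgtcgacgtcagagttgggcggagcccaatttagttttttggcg
Cdc6: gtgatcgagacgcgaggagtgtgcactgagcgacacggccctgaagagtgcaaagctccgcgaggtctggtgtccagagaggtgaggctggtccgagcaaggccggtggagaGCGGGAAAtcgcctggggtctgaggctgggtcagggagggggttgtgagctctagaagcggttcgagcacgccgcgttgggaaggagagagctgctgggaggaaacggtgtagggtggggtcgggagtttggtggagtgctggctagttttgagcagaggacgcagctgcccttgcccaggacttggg
Slbp: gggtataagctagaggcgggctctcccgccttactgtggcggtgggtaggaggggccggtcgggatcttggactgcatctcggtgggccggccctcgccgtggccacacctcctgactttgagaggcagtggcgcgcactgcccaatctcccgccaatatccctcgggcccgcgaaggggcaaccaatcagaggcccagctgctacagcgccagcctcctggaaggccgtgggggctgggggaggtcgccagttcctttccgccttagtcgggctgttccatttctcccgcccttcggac
Cdt1: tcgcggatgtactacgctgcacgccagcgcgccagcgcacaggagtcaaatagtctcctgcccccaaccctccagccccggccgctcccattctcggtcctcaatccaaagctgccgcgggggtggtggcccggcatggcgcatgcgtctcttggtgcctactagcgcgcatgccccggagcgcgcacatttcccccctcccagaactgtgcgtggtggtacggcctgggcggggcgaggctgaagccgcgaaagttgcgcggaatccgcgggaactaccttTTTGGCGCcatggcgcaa

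Cdc6, with the second largest rise of the 4, has 1 match (TTTCCCGC on the strand opposite to the gene, its first base in the window at −138 from the start). Cdt1, with the smallest rise of the 4, also has 1 match (TTTGGCGC on the gene's strand, 32 bases into the transcript). Mcm10, with the largest rise, and Slbp have none. Across the 35 of 41 genes that the table holds, 13 (37.1%) have a match, against 704 of 27025 promoters of all genes (2.60%). The letters CCAAT, on either strand, occur in 23 of the 35 (65.7%), Mcm10 and Slbp among them, against 41.1% of all promoters. A match describes the letters of this window and is not a binding site, and a missing match says only that these letters are not in it.

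After 2 h the 41 genes had moved little and in both directions. In KO cells 5 were called higher and 11 lower, with a median of −0.14 log2 units beside −0.08 over all genes, of which 23.9% were called higher and 24.5% lower. In WT cells 5 were called higher and 10 lower, with a median of −0.05 beside −0.05 over all genes, of which 26.4% were called higher and 27.2% lower. The share of the 41 genes called higher was thus below that of all genes in both genotypes. Without the 3 KO libraries that stand apart, 15 rather than 16 were called in KO cells. The genes called higher in both genotypes were Mcm4, Mcm6, Cdt1 and Slbp, 4 of the 5 in each. Those called lower in both were Cdc6, Rfc1, Rfc2, Rfc5, Pola1, Pold1, Tyms, Chaf1b and Dut, 9 of the 11 in KO and of the 10 in WT cells.

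Mcm6 (ENSMUSG00000026355), a subunit of the helicase ring, had 212, 191, 166, 172 and 178 CPM in KO cells at 2 h, against 115, 131, 113, 108 and 122 CPM at 0 h in run A. In WT cells Mcm6 had 193, 201, 199, 208 and 193 CPM at 2 h, against 118, 121, 107, 116 and 122 CPM at 0 h. Every 2 h library lay above every 0 h library of its genotype, a difference of 0.63 ± 0.12 in KO and 0.76 ± 0.08 in WT cells (adjusted p = 4.80e-05 and 1.37e-09). The other ring subunits differed by −0.39 (Mcm2) to 0.35 (Mcm4) in KO and −0.20 (Mcm2) to 0.38 (Mcm4) in WT cells.

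Cdt1 had 151, 145, 167, 153 and 153 CPM in KO cells at 2 h, against 102, 101, 91.3, 91.1 and 93.4 CPM at 0 h in run A. In WT cells it had 122, 131, 124, 144 and 137 CPM at 2 h, against 87.3, 90.9, 96.8, 91.3 and 99.2 CPM at 0 h. Here too every 2 h library lay above every 0 h library, a difference of 0.67 ± 0.09 in KO and 0.49 ± 0.09 in WT cells. The mean of Cdt1 was 154 CPM in KO and 132 CPM in WT cells at 2 h, beside 119 and 123 CPM at 24 h, times that come from different runs. Slbp had 93.5, 96.2, 85.1, 84.6 and 82.1 CPM in KO cells at 2 h, against 55.4, 63.8, 59.1, 49.6 and 54.9 CPM at 0 h in run A. In WT cells Slbp had 74.9, 84.1, 85.1, 75.7 and 90.8 CPM, against 59.0, 62.9, 55.6, 59.9 and 56.6 CPM. Without overlap within run A in either genotype, it rose by 0.63 ± 0.10 in KO and 0.47 ± 0.09 in WT cells.

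Of the nucleotide genes, Dut and Tyms were lower at 2 h in both genotypes. Dut had 15.3, 15.7, 10.2, 15.4 and 12.6 CPM in KO cells at 2 h, against 31.6, 34.1, 30.7, 28.2 and 24.4 CPM at 0 h in run A. In WT cells Dut had 14.7, 13.6, 19.2, 18.6 and 15.7 CPM at 2 h, against 27.99, 29.3, 24.6, 29.3 and 26.3 CPM at 0 h. All 2 h libraries lay below all 0 h libraries of their genotype, a difference of −1.12 ± 0.14 in KO and −0.76 ± 0.12 in WT cells (adjusted p = 1.65e-07 and 2.78e-06). Tyms fell by 0.86 ± 0.29 in KO and 1.04 ± 0.26 in WT cells. Rrm2 fell in WT cells (−1.02 ± 0.18, adjusted p = 1.10e-05) and in KO cells differed by −0.34 ± 0.44 (adjusted p = 0.552), and this contrast between the genotypes did not pass (genotype by time, adjusted p = 0.911).

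Chaf1b had 9.61, 14.8, 12.4, 8.56 and 9.33 CPM in KO cells at 2 h, against 18.7, 27.99, 26, 12.4 and 19.8 CPM at 0 h in run A, where the ranges overlapped. In WT cells it had 10.0, 7.76, 10.7, 12.0 and 11.2 CPM, against 22.9, 23.2, 23.2, 20.4 and 16.3 CPM, without overlap. It fell by 0.95 ± 0.21 and 1.04 ± 0.17 log2 units in KO and WT cells. The loader subunit Rfc5 had 15.7, 16.1, 20.1, 15.5 and 16.8 CPM in KO cells at 2 h, against 24.6, 35.9, 26.1, 21.3 and 25.2 CPM at 0 h in run A. In WT cells Rfc5 had 20.9, 19.0, 15.9, 20.7 and 13.7 CPM, against 28.3, 30.2, 25.2, 28.8 and 26.2 CPM. Within run A its groups did not overlap in either genotype, with differences of −0.67 ± 0.16 and −0.63 ± 0.16. A WT library of run C at 0 h, at 19.1 CPM of Rfc5, lay inside the range of WT cells at 2 h. Cdc6 differed by −1.55 ± 0.36 in KO and −1.34 ± 0.40 in WT cells, at levels of 1.32 and 0.708 CPM at 2 h. Called in a single genotype were Lig1 (0.52), Mcm2 (−0.39) and Rfc4 (−1.06) in KO cells, and Pcna (0.30) and Rrm2 in WT cells. The genotype by time interaction called 0 of the 41 genes at 2 h by edgeR, with or without the KO libraries that stand apart, with 1 at an unadjusted p under 0.05, and 0% of all genes.

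At 6 h the 41 genes again lay close to rest, with calls in both directions. In KO cells 3 were called higher and 11 lower (median −0.13, 0.01 over all genes), beside 22.8% of all genes higher and 19.8% lower. In WT cells 4 were called higher and 7 lower (median −0.10, −0.01 over all genes), beside 24.9% and 24.1%. Without the 3 KO libraries that stand apart 11 genes were called in KO cells. Higher in both genotypes were Mcm6 and Ung, 2 of the 3 in KO and 2 of the 4 in WT cells. Lower in both were Rfc1, Rfc2, Rfc5, Rpa1, Chaf1b and Orc6, 6 of the 11 in KO and 6 of the 7 in WT cells.

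Mcm6 stayed up, at 149.8, 205, 152, 175 and 146 CPM in KO and 206, 187, 211, 179 and 203 CPM in WT cells at 6 h, all above the 0 h libraries given above, with differences of 0.53 ± 0.12 and 0.78 ± 0.08. Ung had 24.6, 36.9, 32.9, 31.8 and 21.8 CPM in KO cells at 6 h, against 19.2, 26.7, 22.7, 14.9 and 25.3 CPM at 0 h in run A. In WT cells Ung had 28.8, 29.0, 29.4, 30.2 and 24.9 CPM, against 23.5, 20.5, 24.3, 21.5 and 28.4 CPM. Its ranges overlapped in both genotypes, with differences of 0.49 ± 0.16 and 0.30 ± 0.11 (adjusted p = 0.0121 and 0.0249). Cdt1 was no longer above rest: it had 77.9, 72.8, 84.5, 83.1 and 87.7 CPM in KO and 71.2, 70.9, 75.0, 75.2 and 75.4 CPM in WT cells, all below the 0 h libraries of run A, with differences of −0.19 ± 0.09 (adjusted p = 0.0979) and −0.31 ± 0.09 (adjusted p = 0.00357).

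Chaf1b remained low, at 7.37, 11.9, 9.003, 10.96 and 11.4 CPM in KO and 10.7, 10.0, 10.4, 9.38 and 11.9 CPM in WT cells, below all 0 h libraries of run A, with differences of −1.004 ± 0.21 and −0.99 ± 0.16. Rpa1 had 193, 162, 105, 156 and 189 CPM in KO cells at 6 h, against 195, 234, 226, 184 and 209.7 CPM at 0 h, with overlap. In WT cells it had 179, 181, 161, 153 and 166 CPM, against 231, 223, 225, 220.0 and 228 CPM, without overlap, and the differences were −0.34 ± 0.13 and −0.40 ± 0.07. Gins1 was called higher in WT cells alone (1.504 ± 0.37), at 2.79, 2.13, 2.75, 2.15 and 3.18 CPM, against 0.725, 0.638, 0.861, 2.26 and 0.187 CPM at 0 h in run A, with 1 library at 0 h inside the range at 6 h. Rrm1 was higher in WT cells by 0.37, and Tk1 in KO cells by 0.72. Cdc6 differed by −1.74 ± 0.35 in KO cells, where it was called, and by −0.58 ± 0.36 in WT cells (adjusted p = 0.190), and Chaf1a by −1.06 and −0.55. The interaction at 6 h called 0 of the 41 genes by edgeR, with or without those libraries, with 1 at an unadjusted p under 0.05, and 0% of all genes.

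The size of the 24 h rise differed between the runs. Taking each run's own 0 h libraries as its base, the rise was lower in run C than in run B for 18 of 41 genes in WT cells, with a median of −0.88 log2 units, beside 5.75% of all genes called lower, 3.88% called higher and a median of −0.15. In KO cells it was lower for 3 genes (Pcna, Lig1 and Rpa2), with a median of −0.47, beside 1.90% of all genes lower, 2.36% higher and a median of −0.13. Without KO replicate 1 at 24 h, 11 genes were called in KO cells, with the share of all genes in that refit not given here. Pcna had 581, 372 and 431 CPM in run C and 817 and 688 CPM in run B in KO cells at 24 h, and 377, 335 and 454 CPM in run C and 689 and 742 CPM in run B in WT cells. The runs did not overlap in either genotype, and its rise differed by −1.02 ± 0.20 in KO and −1.14 ± 0.20 in WT cells (adjusted p = 0.00364 and 0.000677). Rpa2 differed by −0.97 ± 0.18 and −1.42 ± 0.18, and Lig1 by −1.22 ± 0.29 and −1.500 ± 0.30. All 4 polymerase and primase genes were called lower in WT cells, Pole by −1.57 ± 0.36 and Pola1 by −1.35 ± 0.31. Of the 6 genes of helicase activation 0 were called, although their median was −0.72 and their lowest difference −1.59. The lack of calls thus does not show that these genes rose equally in both runs. The loader gene Rfc3 was called lower in WT cells by −1.42 ± 0.31. Against the majority, Orc1 (0.47 ± 0.56) and Gins1 (0.02 ± 0.46) had differences above 0 in WT cells, and Gins2 (0.20 ± 0.62), Cdc45 (0.09 ± 0.40) and Gins1 (0.02 ± 0.49) in KO cells.

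Other transcripts moved with the run at 24 h. The 7 CD8 T cell markers summed to 3057 to 3662 CPM in run C and 2543 to 2775 CPM in run B in KO cells, and to 3361 to 3812 and 2519 to 2621 CPM in WT cells. The 6 erythroid markers summed to 33.5 to 149 CPM in run C and 6.25 to 8.98 CPM in run B in KO cells, and to 20.7 to 124 and 3.30 to 16.3 CPM in WT cells. Nearly all of this was the haemoglobin genes Hba-a1 and Hbb-bs, and the erythroid regulator Klf1 was at 0 in run C of WT cells. The 4 NK cell markers summed to 86.8 to 117 and 32.3 to 117 CPM in KO and 45.9 to 54.8 and 17.99 to 22.7 CPM in WT cells, nearly all Eomes, which activated CD8 T cells also express, with Ncr1 and Klra8 at 0 in run C of both genotypes. The 6 markers of dendritic cells and MHC class II summed to 47.6 to 113 and 52.04 to 76.6 CPM in KO and 57.2 to 174 and 52.2 to 55.0 CPM in WT cells. The 7 B cell markers summed to 25.4 to 56.7 CPM in run C and 16.8 to 18.1 CPM in run B in KO cells, and to 24.2 to 68.8 and 14.8 to 20.8 CPM in WT cells, with none at 0. The sums of CD8 T cell, erythroid and B cell markers did not overlap between the runs in either genotype, whereas those of NK cell and of dendritic cell markers overlapped in KO cells and not in WT cells. The 6 monocyte, 5 neutrophil and 4 CD4 and regulatory T cell markers summed to at most 13.8 CPM in any of these libraries. The part of these transcripts in the lower rise was not tested.

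Loss of Sh2b3 took no replication gene past the threshold at 0, 2 or 6 h, by edgeR with the filter on low counts. At 0 h (n = 11 each) 0 of 41 were called, beside 0.633% of all genes. The median difference, KO against WT, was 0.06 log2 units, beside −0.001 over all genes. An unadjusted p under 0.05 was reached by 9, 8 of them higher in KO cells, and the share of all genes at that p is not given here. The 3 with the smallest p were Cdc45 (0.69 ± 0.19, adjusted p = 0.106), Cdc6 (0.84 ± 0.25, adjusted p = 0.124) and Chaf1a (0.63 ± 0.19, adjusted p = 0.142). Cdc45 had a lowest value of 2.10, a median of 5.27 and a highest value of 8.51 CPM in KO cells and a lowest value of 2.12, a median of 3.15 and a highest value of 5.16 CPM in WT cells, so the ranges overlapped. DESeq2 called Cdc45 (adjusted p = 0.0313) and Cdc6 (adjusted p = 0.0449). At 2 h 0 were called, beside 0.0647% of all genes (median 0.02, 5 at an unadjusted p under 0.05), and at 6 h 0, beside 0.0306% (median −0.04, 3 at an unadjusted p under 0.05). DESeq2 also called 0 at both times, and without the 3 KO libraries that stand apart edgeR called 0 at 0, 2 and 6 h. Without the filter on low counts edgeR called Cdc45 and Chaf1a at 0 h and Rrm2 at 2 h, all higher in KO cells (adjusted p = 0.0203, 0.0450 and 0.0320).

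At 24 h (n = 5 each, with the run as a term) 0 of 41 genes were called between the genotypes by edgeR or by DESeq2, beside 0.372% of all genes. Without the filter on low counts edgeR called Mcm10, Pola1, Rfc5, Rrm2 and Uhrf1, all higher in KO cells (adjusted p from 0.00175 to 0.0299). The share of all genes called in that fit is not given here. The median difference, KO against WT, was 0.22 log2 units with 37 of 41 genes above 0, beside a median of 0.000168 over all genes. All 9 genes with an unadjusted p under 0.05 were higher in KO cells. The largest was Mcm10 (0.50 ± 0.18, adjusted p = 0.298), and Rrm2 (0.46 ± 0.15, adjusted p = 0.246) and Rfc5 (0.41 ± 0.13, adjusted p = 0.241) had the smallest p. The shares of all genes above 0 and at that unadjusted p are not given here. The 41 genes come from the same libraries and are not independent, so these counts do not show an effect of genotype. The 4 genes below 0 were Gins4 (−0.20 ± 0.12), Cdt1 (−0.04 ± 0.09), Rfc2 and Orc6. The genotype by time interaction at 24 h called 0 of 41 by edgeR (median 0.13, 1 at an unadjusted p under 0.05), beside 0.140% of all genes.

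With all libraries and the filter on low counts, the genotype calls at 24 h came from run C. In run C (3 libraries each) the median was 0.41 log2 units and 4 genes were called higher in KO cells, beside 2.95% of all genes higher and 1.19% lower. In run B (2 each) the median was −0.00460 and 0 were called, also at an unadjusted p under 0.05, beside 0.0178% of all genes. The summed level in KO cells was 1.29 times that in WT cells in run C and 0.987 times in run B. Mcm2 had 349.9, 223 and 307 CPM in KO and 183, 219.6 and 223 CPM in WT cells in run C, and 370.3 and 319 CPM in KO and 359.8 and 336 CPM in WT cells in run B. In run C its lowest KO library equalled the highest WT library to 3 digits, and the difference was 0.50 ± 0.12 in run C (adjusted p = 0.0148) and −0.02 ± 0.14 in run B.

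Mcm10 had 103, 51.3 and 87.9 CPM in KO and 38.4, 49.2 and 54.5 CPM in WT cells in run C, and 131 and 95.8 CPM in KO and 96.1 and 113 CPM in WT cells in run B. The genotypes overlapped in both runs, with differences of 0.78 ± 0.19 in run C (adjusted p = 0.0249) and 0.12 ± 0.23 in run B. Rfc5 had 101, 64.2 and 91.3 CPM in KO and 56.6, 62.1 and 49.3 CPM in WT cells in run C, without overlap (0.61 ± 0.14, adjusted p = 0.0139), and 144 and 107 CPM in KO and 112 and 116 CPM in WT cells in run B (0.14 ± 0.17). Orc1 had 30.7, 18.3 and 38.2 CPM in KO and 18.3, 21.5 and 13.6 CPM in WT cells in run C (0.71 ± 0.21, adjusted p = 0.0473), with overlap, and differed by 0.05 ± 0.25 in run B. In run C the members without a positive difference were Gins4 (−0.26 ± 0.14), Orc6 (−0.03 ± 0.13) and Rfc2 (−0.01 ± 0.13).

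The 4 calls of run C rest on single libraries. KO replicate 2, the lowest of the 3 KO libraries of that run for Mcm2, Mcm10, Rfc5 and Orc1, summed to 4736 CPM over the 41 genes, against 4602, 5023 and 5574 CPM in its WT libraries. Without it 29 of 41 genes were called higher in KO cells, and without WT replicate 1 only 1. Without KO replicate 1, and likewise without KO replicate 3, 0 were called. With the 6 libraries of run C fitted on their own, 0 were called, where the spread comes from 4 degrees of freedom. How many of all genes were called in each of these refits is not given here, so these counts cannot be set against the shares of all genes. Of the 7 CD8 T cell markers 2 were called lower in KO than in WT cells of run C (median −0.31 log2 units), and their sums, given above, overlapped between the genotypes. Their part in the genotype calls, and whether the genotype difference itself differed between the runs, were not tested.

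**Figure D4:**
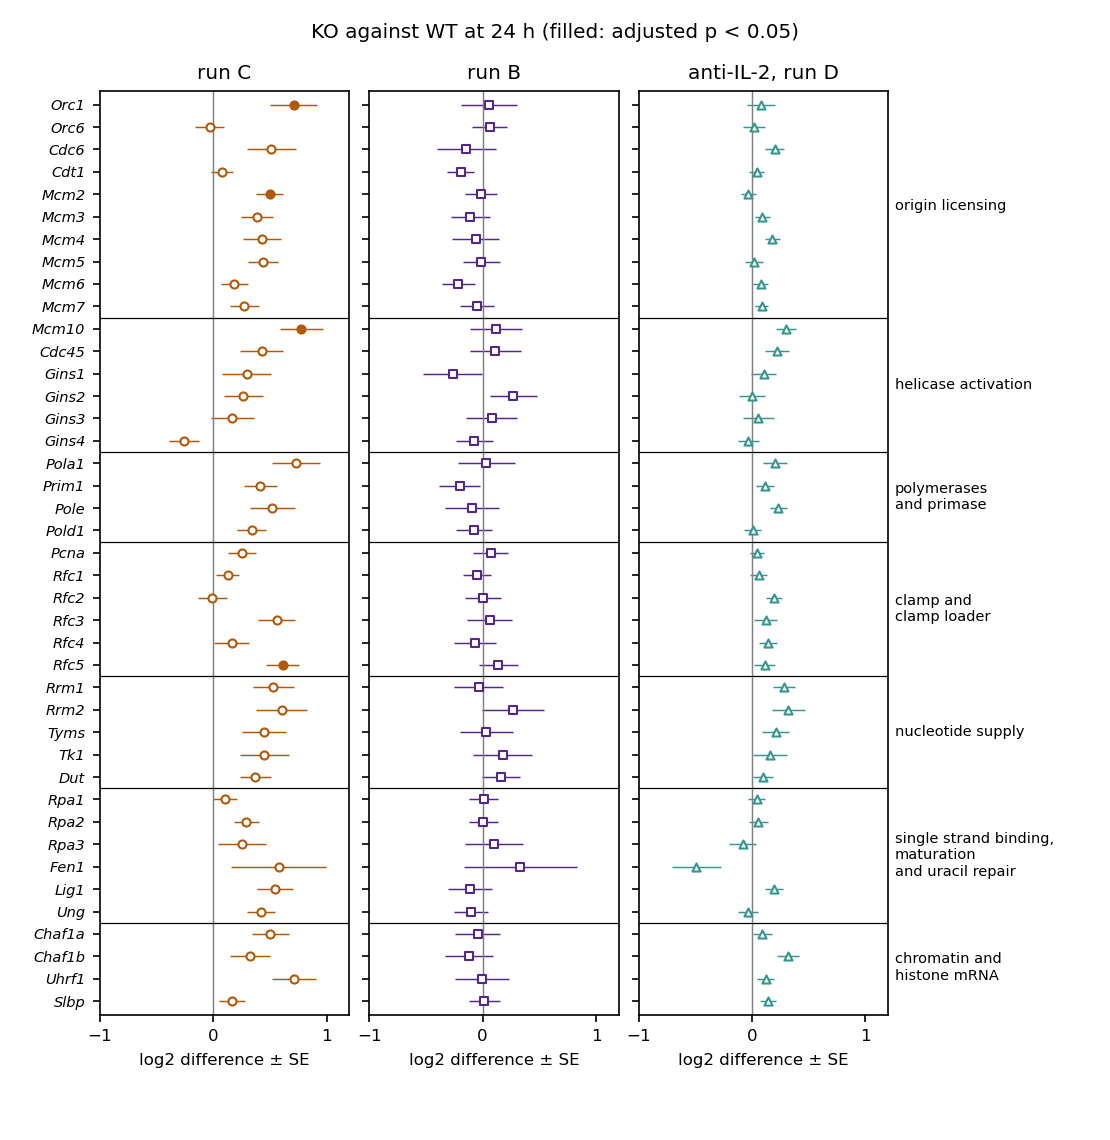
Log2 difference, KO against WT, of each of the 41 genes at 24 h (points, with SE bars) in run C (left), run B (middle) and with anti-IL-2 in run D (right). Filled points have adjusted p under 0.05. Points lie right of 0 for 38 of 41 genes in run C, on both sides of it in run B, and close to it with anti-IL-2, apart from Fen1.

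With anti-IL-2 the replication genes were expressed at 24 h in both genotypes, at summed levels nearer to those of run B than of run C. The 41 genes summed to 8549.7, 7597, 8947 and 8804 CPM in KO and 7055, 7783, 8179 and 8403 CPM in WT cells with the antibody. These sums were 0.999 times the untreated mean of run B and 1.30 times that of run C in KO cells, and 0.914 and 1.55 times in WT cells. Against run C, 17 genes were called higher with anti-IL-2 in KO cells (median 0.39), beside 5.63% of all genes higher and 7.12% lower, and 29 in WT cells (median 0.68), beside 11.3% and 10.1%. Against run B, 0 were called in KO (median −0.02, 6 at an unadjusted p under 0.05) and 0 in WT cells (median −0.12, 8 at an unadjusted p under 0.05), beside 4.26% and 2.62% of all genes. With both untreated runs together 0 were called in KO cells and 1, Ung, in WT cells. All comparisons within a genotype share the same 4 libraries with anti-IL-2, and the run cannot be told apart from the antibody in any of them.

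Markers of CD8 T cells and of other cells also differed from run C. Of the 7 CD8 T cell markers 6 were called lower with anti-IL-2 in KO (median −0.35) and 7 in WT cells (median −0.58), and against run B 1 was called lower in each genotype. They summed to 2202 to 2458 CPM in KO and 2222 to 2269 CPM in WT cells with anti-IL-2, below all of run C and of run B. In WT cells 2 of the 7 B cell markers and 2 of the 6 erythroid markers were called lower than in run C (medians −2.10 and −1.92), and in KO cells 0 of either list (medians −1.58 and −1.06). The B cell markers summed to 19.8 to 24.9 CPM in KO and 10.2 to 29.0 CPM in WT cells with anti-IL-2, the erythroid markers to 8.66 to 28.4 and 3.04 to 17.3 CPM, and the NK cell markers to 34.3 to 53.9 and 24.3 to 35.5 CPM. The erythroid and NK cell sums lay below run C without overlap in both genotypes, and the B cell sums in KO cells. Of the 2 NK cell markers tested, however, 1 was called higher than run C in WT and 1 lower in KO cells (medians 3.34 and 2.46). Of the 6 markers of dendritic cells and MHC class II 1 was called higher in WT cells. Of the 4 CD4 and regulatory T cell markers 1 was called lower in KO cells. None of the CD8 T cell, B cell and erythroid markers was at 0 in every library with anti-IL-2, and 2 of the 4 NK cell markers were in each genotype. Their part in the calls against run C was not tested.

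The calls against run C in KO cells depend on single libraries: there were 28, 3 and 8 without untreated KO replicate 1, 2 or 3, and 9, 6 and 9 without replicate 1, 3 or 4 with anti-IL-2. For these refits the share of all genes called is not given here. Of the 17 genes called in KO cells, 16 were also among the 29 called in WT cells, the exception being Rfc2. Pole had the largest difference in both genotypes. It had 187, 159.6, 199 and 202 CPM with anti-IL-2 in KO cells, against 115, 57.7 and 103 CPM in run C and 177 and 134 CPM in run B without it. In WT cells it had 148, 156, 158 and 173 CPM with anti-IL-2, against 48.0, 67.9 and 76.7 CPM in run C and 178 and 153 CPM in run B. The libraries with anti-IL-2 lay above all of run C and reached those of run B, with differences of 1.02 ± 0.19 and 1.31 ± 0.19 against run C (adjusted p = 0.00132 and 9.68e-05) and 0.28 ± 0.21 and −0.05 ± 0.21 against run B, in KO and WT cells. Chaf1a was likewise called against run C in both, by 0.61 ± 0.15 and 1.02 ± 0.16. In KO cells Dut was the 1 gene below 0 (−0.08 ± 0.13).

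**Figure D5:**
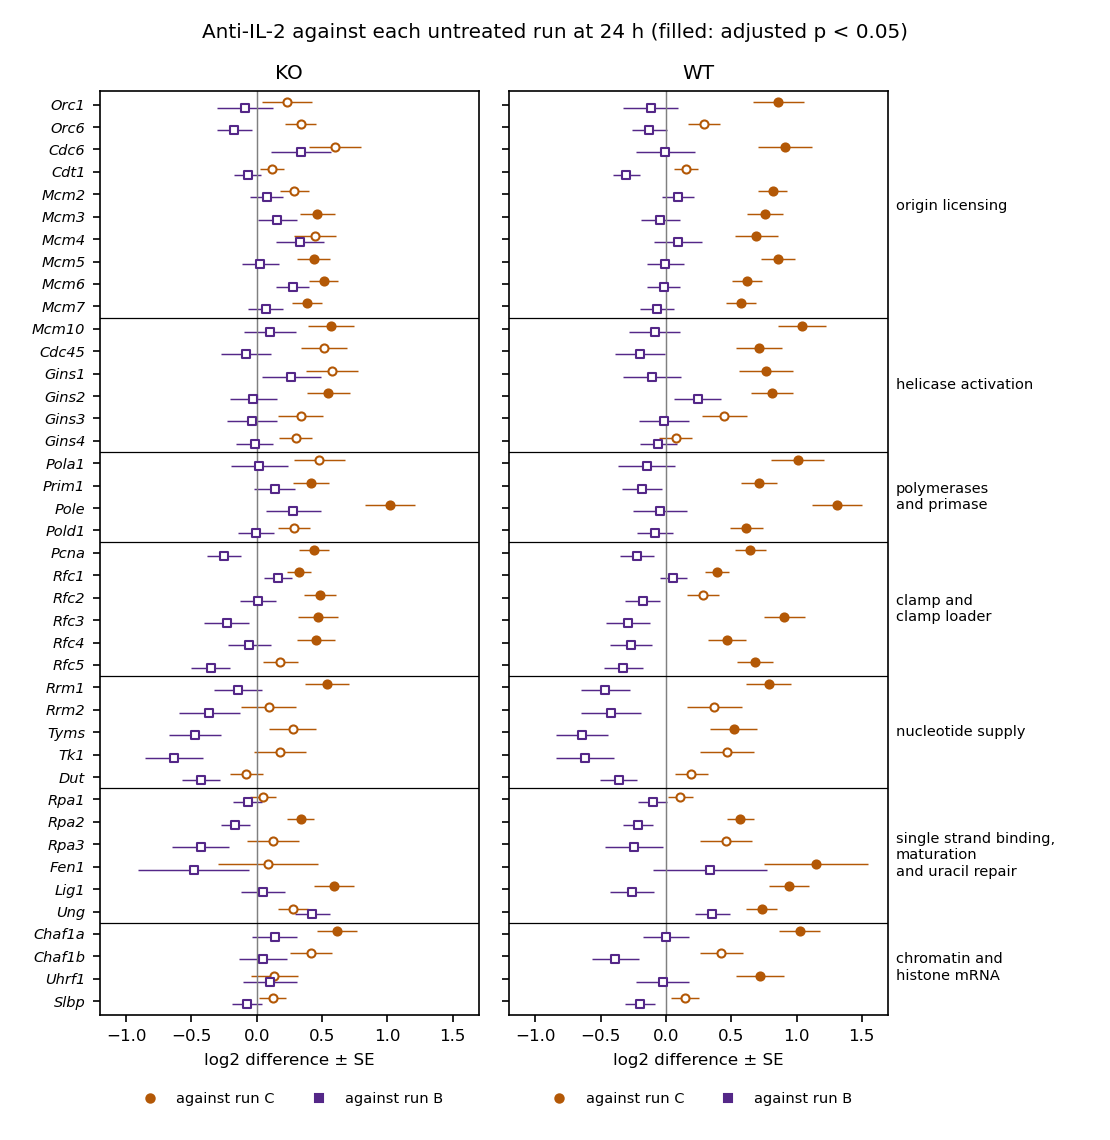
Log2 difference of each of the 41 genes at 24 h with anti-IL-2 against the untreated libraries of run C (circles) and of run B (squares), with SE bars, for KO (left) and WT (right). Filled points have adjusted p under 0.05. The circles lie right of 0 for 40 of 41 genes in KO and all 41 in WT cells, and the squares lie around 0, with the nucleotide genes to its left.

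The nucleotide genes had the lowest median difference of the 7 roles with anti-IL-2, against either run. Their median was 0.18 against run C and −0.43 against run B in KO cells, and 0.47 and −0.46 in WT cells. Tk1 had 45.3, 40.7, 59.8 and 48.5 CPM with anti-IL-2 in KO cells, against 56.6, 39.1 and 32.1 CPM in run C and 84.0 and 68.1 CPM in run B. In WT cells it had 30.4, 48.8, 41.9 and 52.2 CPM with anti-IL-2, against 39.3, 23.4 and 31.1 CPM in run C and 69.4 and 64.9 CPM in run B. The libraries with anti-IL-2 lay below run B in both genotypes. Their range overlapped that of run C, although in WT cells 3 of the 4 lay above every library of run C. The differences from run B of −0.63 ± 0.22 in KO and −0.62 ± 0.22 in WT cells did not pass (adjusted p = 0.122 and 0.187). With no filter on low counts edgeR called Tk1 lower in both (adjusted p = 0.00198 and 0.00401).

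Tyms differed from run B by −0.47 ± 0.20 in KO (adjusted p = 0.218) and −0.64 ± 0.20 in WT cells (adjusted p = 0.0980), and from run C by 0.28 ± 0.18 and 0.52 ± 0.18, past the threshold in WT cells. It averaged 70.6 ± 6.51 CPM in KO cells with anti-IL-2, against means of 58.0 in run C and 98.7 in run B without it. Tyms in WT cells averaged 61.03 ± 11.9 CPM with anti-IL-2, against 42.6 in run C and 96.1 in run B. Dut averaged 166 ± 13.3 CPM in KO cells with anti-IL-2, against means of 175 in run C and 225 in run B without it. Dut in WT cells averaged 155 ± 18.8 CPM with anti-IL-2, against 135 in run C and 201 in run B. Rrm2 averaged 272 ± 43.9 CPM in KO cells with anti-IL-2, against means of 254 in run C and 353 in run B without it. Rrm2 in WT cells averaged 217 ± 43.3 CPM with anti-IL-2, against 168 in run C and 293 in run B. DESeq2 called Tyms lower than run B in WT cells (adjusted p = 0.0341), together with Cdt1 (adjusted p = 0.0325). With no filter on low counts edgeR called Tyms lower than run B in both genotypes, Dut in KO cells, and Rrm1 and Rrm2 in WT cells. For Rrm1 the mean was 432 ± 49.9 CPM in KO cells with anti-IL-2, against means of 295 in run C and 481 in run B without it. Rrm1 in WT cells averaged 354 ± 54.9 CPM with anti-IL-2, against 205 in run C and 492 in run B.

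Ung had the highest difference from run B in KO and in WT cells. It had 143, 121, 125 and 124 CPM with anti-IL-2 in KO cells, against 123, 81.7 and 112 CPM in run C and 103 and 89.8 CPM in run B. In WT cells it had 109, 144, 141 and 131 CPM, against 75.1, 77.4 and 84.4 CPM in run C and 102 and 105 CPM in run B. It lay above run B without overlap in both genotypes and differed from it by 0.43 ± 0.13 in KO and 0.36 ± 0.13 in WT cells (adjusted p = 0.0695 and 0.201), and from both runs together by 0.57 in WT cells (adjusted p = 0.00933). DESeq2 called Ung higher than run B in KO cells (adjusted p = 0.0260).

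Among the other roles, Mcm2 averaged 360.0 ± 30.1 CPM in KO cells with anti-IL-2, against means of 294 in run C and 344 in run B without it. Mcm2 in WT cells averaged 368 ± 19.1 CPM with anti-IL-2, against 209 in run C and 348 in run B (SD, n = 4 with anti-IL-2). Mcm5 averaged 531 ± 59.8 CPM in KO cells with anti-IL-2, against means of 391 in run C and 526 in run B without it. Mcm5 in WT cells averaged 524 ± 38.9 CPM with anti-IL-2, against 289 in run C and 530.1 in run B. Both were called higher than run C in WT cells, by 0.82 ± 0.11 and 0.86 ± 0.13, and Mcm5 in KO cells, by 0.44 ± 0.13. Cdc6 averaged 110.0 ± 5.95 CPM in KO cells with anti-IL-2, against means of 72.2 in run C and 87.6 in run B without it. Cdc6 in WT cells averaged 95.7 ± 10.1 CPM with anti-IL-2, against 50.9 in run C and 96.8 in run B. Cdt1 averaged 123 ± 3.87 CPM in KO cells with anti-IL-2, against means of 113 in run C and 129.7 in run B without it. Cdt1 in WT cells averaged 119 ± 4.74 CPM with anti-IL-2, against 107 in run C and 148 in run B. Cdt1 moved little against run C, by 0.12 ± 0.09 in KO and 0.16 ± 0.09 in WT cells. Orc1 averaged 34.2 ± 2.14 CPM in KO cells with anti-IL-2, against means of 29.1 in run C and 36.8 in run B without it. Orc1 in WT cells averaged 32.3 ± 5.38 CPM with anti-IL-2, against 17.8 in run C and 35.3 in run B.

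Mcm10 averaged 121 ± 12.7 CPM in KO cells with anti-IL-2, against means of 80.8 in run C and 114 in run B without it. Mcm10 in WT cells averaged 97.5 ± 9.06 CPM with anti-IL-2, against 47.4 in run C and 104 in run B. Cdc45 averaged 104 ± 12.1 CPM in KO cells with anti-IL-2, against means of 72.7 in run C and 111 in run B without it. Cdc45 in WT cells averaged 89.2 ± 13.2 CPM with anti-IL-2, against 54.4 in run C and 103 in run B. The gap between the antibody cultures and run C for Mcm10 was 0.57 ± 0.18 in KO and 1.04 ± 0.18 in WT cells, called in both. For Gins2 the mean was 48.8 ± 4.26 CPM in KO cells with anti-IL-2, against means of 33.2 in run C and 50.2 in run B without it. Gins2 in WT cells averaged 48.6 ± 7.70 CPM with anti-IL-2, against 27.7 in run C and 41.5 in run B. Pola1, called in WT cells (1.01), averaged 113 ± 14.3 CPM in KO cells with anti-IL-2, against means of 80.8 in run C and 113 in run B without it. Pola1 in WT cells averaged 98.4 ± 14.7 CPM with anti-IL-2, against 48.9 in run C and 110.0 in run B. Prim1, which was called against run C in both genotypes (0.41 and 0.71), averaged 98.7 ± 5.78 CPM in KO cells with anti-IL-2, against means of 73.7 in run C and 90.6 in run B without it. Prim1 in WT cells averaged 90.9 ± 7.77 CPM with anti-IL-2, against 55.5 in run C and 104 in run B. Pcna averaged 628 ± 33.6 CPM in KO cells with anti-IL-2, against means of 461 in run C and 752 in run B without it. Pcna in WT cells averaged 609 ± 49.4 CPM with anti-IL-2, against 388 in run C and 715 in run B. For Rfc3 the mean was 60.6 ± 2.33 CPM in KO cells with anti-IL-2, against means of 43.4 in run C and 71.7 in run B without it. Rfc3 in WT cells averaged 55.6 ± 8.15 CPM with anti-IL-2, against 29.7 in run C and 68.5 in run B. Both were called against run C in both genotypes, Pcna by 0.44 in KO and 0.65 in WT cells and Rfc3 by 0.47 and 0.91.

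Lig1 averaged 290.0 ± 31.4 CPM in KO cells with anti-IL-2, against means of 191 in run C and 282 in run B without it. Lig1 in WT cells averaged 253 ± 20.5 CPM with anti-IL-2, against 132 in run C and 305 in run B. Rpa2 averaged 98.4 ± 10.2 CPM in KO cells with anti-IL-2, against means of 77.6 in run C and 111 in run B without it. Rpa2 in WT cells averaged 94.4 ± 6.74 CPM with anti-IL-2, against 63.6 in run C and 110.4 in run B. Both were called against run C in both genotypes, by 0.59 and 0.34 in KO and 0.94 and 0.57 in WT cells. For Rpa3 the mean was 31.2 ± 2.46 CPM in KO cells with anti-IL-2, against means of 28.4 in run C and 42.3 in run B without it. Rpa3 in WT cells averaged 33.0 ± 4.29 CPM with anti-IL-2, against 24.0 in run C and 39.4 in run B. Fen1, whose level is uncertain and which was called in WT cells (1.15), averaged 10.0 ± 3.28 CPM in KO cells with anti-IL-2, against means of 9.34 in run C and 14.1 in run B without it. Fen1 in WT cells averaged 14 ± 1.61 CPM with anti-IL-2, against 6.28 in run C and 11.1 in run B. Its WT libraries of run C had 7.61, 1.34 and 9.90 CPM, so that mean and the call in WT cells depend on a library near the resting level. Uhrf1 averaged 516 ± 41.8 CPM in KO cells with anti-IL-2, against means of 469 in run C and 486 in run B without it. Uhrf1 in WT cells averaged 474 ± 43.5 CPM with anti-IL-2, against 288 in run C and 486 in run B. It was called in WT cells (0.72 ± 0.18) and not in KO cells (0.13 ± 0.18, adjusted p = 0.717). For Chaf1b the mean was 63.2 ± 2.18 CPM in KO cells with anti-IL-2, against means of 47.1 in run C and 61.7 in run B without it. Chaf1b in WT cells averaged 50.8 ± 6.77 CPM with anti-IL-2, against 37.8 in run C and 66.9 in run B. Slbp averaged 168 ± 5.99 CPM in KO cells with anti-IL-2, against means of 154 in run C and 179 in run B without it. Slbp in WT cells averaged 153 ± 14.6 CPM with anti-IL-2, against 138 in run C and 177 in run B. Neither Slbp nor Chaf1b was called in either genotype.

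With anti-IL-2, KO and WT cells differed in 0 of 41 genes by edgeR and by DESeq2 (median 0.10 log2 units, 36 of 41 above 0, 11 at an unadjusted p under 0.05, 10 of them higher in KO cells), beside 0.350% of all genes called. Over all genes the median was −0.003, and their shares above 0 and at that unadjusted p are not given here. Among the 41 the smallest adjusted p was that of Mcm10, 0.30 ± 0.09 (adjusted p = 0.234). Without the filter on low counts edgeR called Mcm10 (adjusted p = 0.0478) and Rrm1 (adjusted p = 0.0104), both higher in KO cells. Fen1 had the lowest difference, −0.49 ± 0.21, and Rpa3, Ung, Mcm2 and Gins4 also lay below 0. Whether the change from each untreated run to the antibody cultures of run D differed between the genotypes was tested as an interaction. Antibody and run cannot be told apart in this interaction either. Against run C it called 0 of 41 by edgeR (median −0.28, 6 at an unadjusted p under 0.05), beside 0.0831% of all genes. Without KO replicate 2 at 24 h it called 9, with the share of all genes in that refit not given here. Against run B it called 0 (median 0.12, 0 at an unadjusted p under 0.05), beside 0% of all genes. DESeq2 called 0 in both.

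The other replication genes, a list of 47 that includes the remaining ORC and polymerase subunits, fork protection factors and nucleotide enzymes, rose with them at 24 h. In KO cells 40 of the 47 were called higher and 2 lower (median 1.34), beside 30.1% and 29.8% of all genes. In WT cells 41 were called higher and 2 lower (median 1.08), beside 27.8% and 31.6%. The 2 called lower in each genotype were Rrm2b, the p53-induced form of the small ribonucleotide reductase subunit, at −0.93 ± 0.12 in KO and −0.74 ± 0.13 in WT cells, and Pold4, a small subunit of the lagging strand polymerase, at −0.54 ± 0.15 and −0.39 ± 0.15. Rrm2b thus went opposite to Rrm2. At 6 h 11 were called higher and 10 lower in KO cells, beside 22.8% and 19.8% of all genes, and 12 and 12 in WT cells, beside 24.9% and 24.1%. The calls at 6 h were thus close to the shares of all genes. Among those higher were the histone acetyltransferase Hat1, by 1.36 ± 0.17 in KO and 1.25 ± 0.12 in WT cells, and the topoisomerase Top1, by 0.95 ± 0.17 and 0.91 ± 0.09. Samhd1, which breaks down deoxynucleotides, was called lower with anti-IL-2 against both untreated runs in both genotypes: by −0.94 ± 0.12 and −0.76 ± 0.13 against runs C and B in KO cells and −0.95 ± 0.12 and −0.92 ± 0.13 in WT cells. These 5 genes were named after their values were seen. Against run C, 21 of the 47 were called higher and 2 lower in KO cells, beside 5.63% and 7.12% of all genes. In WT cells 27 were called higher and 3 lower, beside 11.3% and 10.1%. Against run B 0 were called higher and 1 lower in each genotype, beside 4.26% of all genes in KO and 2.62% in WT cells in either direction.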

How the data were processed

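RNA was measured by sequencing in 60 libraries of naive and stimulated CD8 T cells. The authors deposited 1 table of whole-number read counts for 55414 genes, with no normalization. Per the submitters' processing notes, which name tools without their order, the processing used FastQC, STAR 2.7.9a, SAMtools, Picard, Subread and featureCounts 2.0.1 with the build GRCm39; whether counting used strand is not given in the sources used here, and reads of overlapping genes on opposite strands cannot then be told apart. Ensembl identifiers were given gene names from the GENCODE M21 annotation, which named 52081 of them. That annotation and the RefSeq promoter table belong to build GRCm38, so it was used for names, exon lengths and overlaps, and coordinates are printed only for the promoters.

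Total counts of 13987029 to 35476519 per library limit the precision of genes at a few CPM, such as Mcm10 and Orc1 at rest. No 2 libraries agreed within sampling noise (smallest chi-square per degree of freedom 7.33 over genes with a summed count of at least 40). Library runs were read from the number in the library names, since the labels give no batch. All fits used edgeR 4.0.16 in R 4.3.3: TMM scaling, filterByExpr with a minimum count of 10, and the robust quasi-likelihood F test, with p-values adjusted by Benjamini and Hochberg's method across every gene tested and a threshold of 0.05. There were 24 comparisons. Times were compared within each genotype with the run as a term, so the 2 and 6 h differences rest on run A and the 24 h differences on runs B and C. Genotypes were compared at each time with the run as a term, and with anti-IL-2 in the 8 libraries of run D. Comparisons of anti-IL-2 with each untreated run, and of genotypes within run B or C, used 18 libraries with a shared estimate of the spread. The fits were tested on simulated counts with known changes.

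The 41 genes, the list of 47 other replication genes, the marker lists and the representatives were chosen with earlier results of these data known. Values in every group are given for 26 representatives of the roles. In each comparison the text also names the 5 called genes that rose most, the 5 that fell most and up to 5 whose sign was against the majority. Alternatives were DESeq2 1.42.0, its size factors in edgeR, no filter on low counts, no run term, each run alone, the 2 untreated runs together, a replicate block, and each replicate left out in turn. Leaving out the 3 KO libraries of run A that stand apart was added after seeing the data.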

Additional observations from a re-analysis of the deposited data

Results flagged for a closer look

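Among 216 groups of 4 to 10 libraries tested, 1 in each of 8 groups for each of the 26 representative genes and for the summed level of the 41 genes, 7 held a library far from the others by Dixon's criterion, a criterion that chance meets in about 1 in 20 groups. Tk1 was at 12.9 CPM in KO replicate 4 at 6 h, where the other 4 libraries had 7.90 to 9.22 CPM. Orc1 was at 2.00 CPM in KO replicate 1 at 2 h, where the others had 0.828 to 1.14 CPM. Slbp was at 119.9 CPM in KO replicate 2 at 24 h, the library with the lowest summed level of the 41 genes in its group, where the others had 168 to 183 CPM. In WT cells, Pcna was at 217 CPM in replicate 4 at 2 h, where the others had 185 to 192 CPM. At 6 h Cdc45 was at 1.88 CPM in WT replicate 1, where the others had 2.86 to 3.17 CPM. WT replicate 5 at 6 h was low in both Mcm5, at 40.04 CPM where the others had 59.2 to 62.5 CPM, and Ung, at 24.9 CPM where the others had 28.8 to 30.2 CPM.

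The 24 h response differed between library runs for 3 of the 41 genes in KO cells and for 18 in WT cells, by the test of that difference itself, and every one of these was lower in run C than in run B. What distinguished the runs is not given in the labels, and the cause was not tested.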

How the results depend on the processing

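The counts of genes called at 2, 6 and 24 h stayed within 1.5 times of their value in every setting run. The share of all genes called in each alternative setting is not given here. Cdt1 was the exception to the rise at 24 h: in run C alone it was 0.26 in KO (adjusted p = 0.0839) and 0.23 in WT cells (adjusted p = 0.0540), its call lost in both, and in run B alone 0.76 and 0.87. Over all settings, 251 recomputed counts stayed within 1.5 times of their value and 32 did not, 279 medians moved little and 4 moved, and 2077 single gene results kept their direction and their side of the threshold. A further 184 single gene results lost their call, and 1 changed sign. This was Tyms with anti-IL-2 against run C in WT cells, which was −0.068 (adjusted p = 0.942) against both untreated runs together. The cause of these changes was not tested.

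Counts of called genes between KO and WT cells were the least stable. By DESeq2 there were 2 at 0 h and 11 in run C at 24 h. With no filter on low counts there were 2 at 0 h, 1 at 2 h, 5 at 24 h, 2 with anti-IL-2, 21 in run C and 2 in the interaction with anti-IL-2 against run C. In run C there were 0 with only its own libraries. Leaving out 1 library at a time gave 0 to 2 at 24 h (2 without KO replicate 5), 0 to 2 with anti-IL-2 (2 without KO replicate 2), 0 to 29 in run C and 0 to 9 in the interaction. For anti-IL-2 against run B there were 1 in KO and 2 in WT cells by DESeq2, and 4 in each genotype with no filter. Those with no filter were Dut, Tk1 and Tyms, lower, and Ung, higher, in KO cells, and Rrm1, Rrm2, Tk1 and Tyms, all lower, in WT cells. Against both untreated runs together there were 0 in KO and 1 in WT cells, with medians of 0.23 in KO and 0.28 in WT cells. Against run C in KO cells, leaving out 1 library gave 3 to 28. The run difference in KO cells called 5 by DESeq2, 7 with no filter, and 2 to 11 with 1 library left out.

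Libraries of run A were paired across times by the last digit of the number in their names, since the replicate numbers at 0 h differ from those at 2 and 6 h. Nothing in the labels ties either number to an animal or day. Libraries with the same digit correlated from −0.02 to 0.55 in their deviations from the group means, and every library correlated best with its own digit in 2 of 6 comparisons of times. For 0 with 2 h, 0 with 6 h and 2 with 6 h, the libraries that did so were 5, 2 and 2 of 5 in WT cells. In KO cells they were 3, 3 and 5 of 5. Among the highest correlations were 0.40, 0.34 and 0.55, those between the 3 KO libraries that stand apart, which share a digit. KO replicate 5 at 2 h and KO replicate 5 at 6 h, which share another digit, correlated at 0.39. With the digit as a replicate block, 19 genes were called at 2 h and 15 at 6 h in KO cells, and 19 and 16 in WT cells, against 17, 14, 19 and 14 in run A without the block. Depth limits the genes at a few CPM at rest, and 2 or 3 libraries a group limit the comparisons within runs B and C.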
